A study of Mus musculus with 3 samples.

Results

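The replication-dependent histone genes were followed through single cells of the mouse calvaria, the roof of the skull. They were taken as the genes whose symbol begins with Hist1h, Hist2h, Hist3h or Hist4h and that had at least 30 unique molecular identifiers (UMIs, counts of captured RNA molecules) over 3 libraries. The rule gave 63 of 31053 genes, from 67 matching symbols. Just inside it were Hist2h2aa2 with 44 UMIs and Hist1h4m with 68. Outside it were Hist1h1t with 21 UMIs, Hist1h2bq with 6, Hist1h2aa with 3 and Hist1h2ba with 1.

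All libraries came from C57BL/6 mice aged 8 weeks. For the scratch-positive library, labelled as the invasive stage, the calvaria was scratched with a needle, which strips the periosteum, and HNM007 cells were then implanted onto it. HNM007 is a mouse squamous cell carcinoma line. For the scratch-negative library, labelled as the pre-invasive stage, HNM007 cells were implanted onto unscratched bone. In both, the tumour was cut away and the calvaria taken 1 week after implantation. The control library came from mice with no tumour. In all 3 libraries, live CD45+ and CD45– cells were combined 1:1 before loading. Scratched bone that carried no tumour was not sampled, so scratching, loss of the periosteum and invasion cannot be told apart. Each group had 1 library and the labels do not give the number of animals behind it, so no difference between groups has a replicate check and no p-value is given.

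Histones package DNA. H2A, H2B, H3 and H4 form the nucleosome core and H1 binds the linker DNA between cores. The replication-dependent genes are transcribed mainly in S phase, when new DNA must be packaged. Their mRNAs normally end in a conserved 3′ stem-loop, bound by the stem-loop binding protein Slbp, and lack the poly(A) tail of other mRNAs. Some members are also known to give polyadenylated mRNA, among them Hist1h1c, Hist1h2bc and Hist2h2be. The libraries here were made with a 3′ kit that primes on poly(A) stretches, so a count reports the histone molecules that were captured this way. What share of all histone mRNA this was is not known. UMIs count molecules at their 3′ ends, so levels were not divided by gene length.

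The stem-loop is the sequence that sets these mRNAs apart, and it is shown for 8 of the 12 members with most UMIs so that its forms can be compared. Of the 63 members, 42 had a 16-base stem-loop, with 6 base pairs and a loop of 4 bases, in their longest transcript in the GENCODE annotation of GRCm38. It was absent from the longest annotated transcript of the other 21, which included Hist1h1b, Hist1h2bc and Hist2h2be. Some of these annotated transcripts, such as those of Hist1h2bn, Hist1h2an and Hist1h3i, end at the stop codon. A stem-loop beyond it would not be seen. Only exact matches were counted, with GG plus 4 C or T, a loop starting with TT and a fully complementary second side. Absence here therefore does not mean that the gene lacks a stem-loop. The form in Hist1h2ap was shared by 25 members of the H1, H2A, H2B and H3 types. The form in Hist1h4d was found in 7 members, all of them H4. Each line gives the transcript strand 5′ to 3′ with the stem-loop in capitals.
Hist1h2ap: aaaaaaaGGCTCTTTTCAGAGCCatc
Hist1h2ae: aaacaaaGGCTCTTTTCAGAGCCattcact
Hist1h1e: acccaaaGGCTCTTTTCAGAGCCacccaca
Hist1h1c: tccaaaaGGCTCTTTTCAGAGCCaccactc
Hist1h3c: aaaaaaaGGCTCTTTTAAGAGCCacctaag
Hist2h2ac: ccaaaaaGGCTCTTTTTAGAGCCaccaaat
Hist1h4d: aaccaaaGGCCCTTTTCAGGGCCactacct
Hist1h4i: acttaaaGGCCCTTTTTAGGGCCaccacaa

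The Hist1h2ap stem-loop lies at chr13:21833029-21833044 on the minus strand of GRCm38, 3 bases from the annotated transcript end. Directly before it the transcript holds a run of 12 A. Runs of at least 8 A were found in 7 members, which together held 48.4% of histone UMIs. The windows around the longest A run of Hist1h2ap, of its near-copy Hist1h2ao and of Hist1h2ae are printed because an internal A run is a place where a poly(A) primer can also anneal. The run is in capitals.
Hist1h2ap: cccgaaaagAAAAAAAAAAAAggctctttt
Hist1h2ao: cccgaaaagAAAAAAAAAAAAggctctttt
Hist1h2ae: taatctcgtAAAAAAAAcaaaggctc

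Reads cannot always be assigned within this family. Hist1h2ap shared 92.4% of its 90-base windows, its last window included, with Hist1h2ao, yet the files give 633182 UMIs to Hist1h2ap and 275 to Hist1h2ao. Their split is therefore uncertain, and Hist1h2ap below may stand for several near-identical H2A genes. At least 50% of windows were shared with another gene in 26 members, and no window in 4, which were Hist1h1b, Hist1h1a, Hist2h4 and Hist2h2be. Hist1h2br shared 99.8% of its windows, its last window included, with Hist1h2bq. They had 10259 and 6 UMIs, so this split, and with it the place of Hist1h2bq outside the rule, is uncertain. The transcript of Hist1h1e overlapped that of Hist1h2be, and that of Hist3h2a overlapped Trim17, so counts of these are uncertain too.

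The members held 1906065 UMIs. The Hist1 cluster on chromosome 13 (chr13:21715763-23764406) supplied 50 members and 95.2% of UMIs. The Hist2 cluster on chromosome 3 (chr3:96219865-96270132) supplied 10 members and 4.23%, the Hist3 cluster on chromosome 11 supplied 2 members and Hist4h4 on chromosome 6 was alone. The 17 H2A genes held 49.97% of UMIs, the 5 H1 genes 25.98%, the 13 H4 genes 11.4%, the 16 H2B genes 7.08% and the 12 H3 genes 5.60%. Levels within the family were very uneven. Hist1h2ap alone held 33.2% of UMIs and the 12 members with most UMIs held 86.1%. These 12 were Hist1h2ap, Hist1h1b, Hist1h2ae, Hist1h1e, Hist1h4d, Hist1h1c, Hist1h2bc, Hist1h3c, Hist2h2ac, Hist1h4h, Hist1h1d and Hist1h4i. At the other end, 12 members had under 1000 UMIs.

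The promoters of the members shared sequence features. RefSeq promoters of 300 bases, 250 before and 50 after the start, on GRCm38.p6 were matched for 58 members and searched on both strands. CCAAT was present in 49 of the 58 (84.5%), against 37.4% of 32851 promoters of all genes. TATAAA was present in 33 (56.9%), against 13.6% of all. The octamer ATTTGCAT was present in 11 (19.0%), against 1.74% of all, and the 11 were 6 H2A and 5 H2B genes. CCAAT was found in every H1, H2A, H2B and H3 promoter matched and in 3 of 12 H4 promoters. In 8 pairs an H2A and an H2B gene faced away from each other across overlapping promoters, and the UMIs of the 2 sides were often unequal. Hist1h2ae had 79.7 times the UMIs of Hist1h2bg and Hist1h2ap 61.7 times those of Hist1h2br, whereas Hist1h2bn had 1.04 times those of Hist1h2ak. The ratio of Hist1h2ap to Hist1h2br is uncertain, because reads of both may also belong to near-copies. The promoter between Hist1h2ap and Hist1h2br, of which 233 bases are in both genes' windows, is given as chr13:21833426-21833725 on the minus strand, with its 3 CCAAT matches in capitals.
Hist1h2ap: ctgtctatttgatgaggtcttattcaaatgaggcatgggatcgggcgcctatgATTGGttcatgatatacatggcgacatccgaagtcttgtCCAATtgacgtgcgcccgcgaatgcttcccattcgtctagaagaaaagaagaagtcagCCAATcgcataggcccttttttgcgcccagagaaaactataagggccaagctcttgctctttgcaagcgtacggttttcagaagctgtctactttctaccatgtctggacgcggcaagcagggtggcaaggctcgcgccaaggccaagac

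The scratch-positive, scratch-negative and control libraries held 9504, 8517 and 7490 cell barcodes, of which 8427, 7590 and 6178 were kept. Between 16 and 30 barcodes were shared by any 2 libraries. Depth differed, with medians of 36352 UMIs per cell in the scratch-positive library, 11242 in the scratch-negative library and 8872 in the control library. The cells were clustered without the histone genes, and 23 of 26 clusters could be named from marker genes, giving 12 classes. Because library and group are the same, depth, free RNA and group cannot be told apart in general. Depth or marker levels are given beside several results.

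The summed histone level, given as histone UMIs in 1000000 UMIs of the class (CPM), was highest in marrow classes known to divide. B-lineage cells had 11773 CPM in the scratch-negative library and 12294 CPM in the control library. Erythroid cells had 7235 and 10084 CPM in those libraries. Neutrophil precursors, the dividing marrow cells that become neutrophils, had 4755 CPM in the scratch-positive library, 8440.4 in the scratch-negative library and 9976 in the control library. These 3 classes stood above the rest in the scratch-negative and control libraries.

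A middle group followed. Monocytes and macrophages had 1633, 2931 and 5223 CPM in the scratch-positive, scratch-negative and control libraries. Osteoclasts, the bone-resorbing cells, had 1375 CPM in the scratch-positive library and 2497 CPM in the scratch-negative library. Carcinoma cells, named from their keratins, had 1098 and 2549 CPM in these 2 libraries. T cells had 2177 CPM in the scratch-negative library and 2026 CPM in the control library, and the counting intervals of these 2 values overlapped.

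Mature neutrophils, fibroblasts, natural killer cells, osteoblasts and chondrocytes made up the rest, and their values partly overlapped those of the middle group. In the scratch-positive library, natural killer cells stood above monocytes and macrophages, osteoclasts and carcinoma cells. Neutrophils had 708.9, 679.3 and 1458 CPM in the scratch-positive, scratch-negative and control libraries. Fibroblasts of the periosteum had 624.2 CPM in the scratch-positive library and 879.5 CPM in the scratch-negative library. Natural killer cells had 1681, 787.9 and 1520.4 CPM in the scratch-positive, scratch-negative and control libraries. Osteoblasts had 2182 CPM in the scratch-negative library and 1403 CPM in the control library, and control chondrocytes had 1429.7 CPM. Mature neutrophils no longer divide, and in the control library their level was well below that of the precursors they come from. Classes with fewer than 50 cells in a library were not compared there, among them scratch-positive erythroid cells (18 cells), B-lineage cells (32 cells) and T cells (17 cells), and control osteoclasts (25 cells) and fibroblasts (48 cells).

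**Figure D1:**
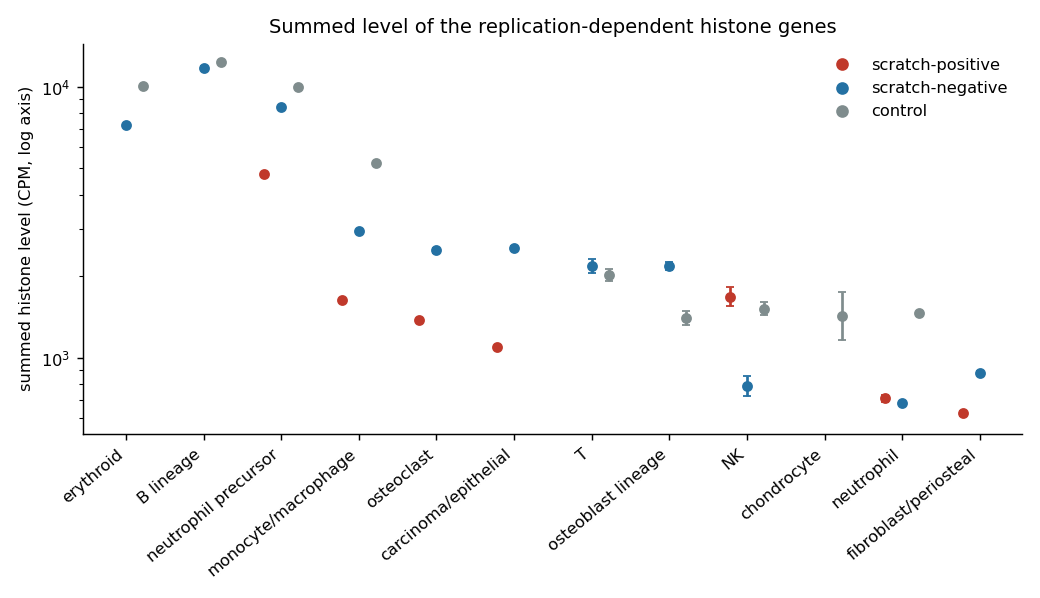
Summed level of the 63 histone genes in each cell class (CPM, log axis), with 1 point per library that has at least 50 cells of the class, and exact Poisson 95% intervals as bars, most of them smaller than the points. Scratch-positive points lie below scratch-negative points in neutrophil precursors, monocytes and macrophages, osteoclasts, carcinoma cells and fibroblasts, whereas in natural killer cells they lie above, and in neutrophils the 2 differ little.

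The member with most UMIs differed between classes and libraries. Hist1h2ap led in 18 of the 27 class and library profiles with at least 50 cells. Hist1h1b, a linker histone, led in scratch-positive carcinoma cells with 19.7% of histone UMIs, in scratch-positive macrophages with 17.1% and in scratch-positive fibroblasts with 17.3%. Hist1h1e, another linker histone, led in natural killer cells of every library and in scratch-positive neutrophils, where it held 26.7%. Hist1h2bc, an H2B gene, led in scratch-positive osteoclasts with 18.7% and in control chondrocytes with 31.6% of only 98 histone UMIs.

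In neutrophil precursors, histone UMIs were concentrated in cells with cell-cycle transcripts. For this, cells were thinned to 2000 UMIs each and sorted by their UMIs of 27 replication genes and 22 mitotic genes, none of them histones. Neutrophil precursors with 6 or more such UMIs had 6352 CPM of histone mRNA in the scratch-positive library, 11198 in the scratch-negative library and 12824 in the control library. Precursors with 0 such UMIs had 366.0, 464.7 and 667.7 CPM. The level in the highest bin was therefore 17.4 times that of the lowest in the scratch-positive library (95% counting interval 13.7 to 22.3), 24.1 times in the scratch-negative library (21.2 to 27.5) and 19.2 times in the control library (16.81 to 22.04). The share of precursors in the highest bin was similar, with 69.5% in the scratch-positive library, 66.2% in the scratch-negative library and 67.1% in the control library. In the bin of 3 to 5 cycle UMIs the levels were 2174, 4694 and 4750.0 CPM. The lower summed level of the scratch-positive precursors was thus also present within cells of the same bin in the upper 2 bins.

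In the highest bin the scratch-positive level was also the lowest in other classes. Monocytes and macrophages with 6 or more cycle UMIs had 3011, 6646 and 9829 CPM in the scratch-positive, scratch-negative and control libraries. Carcinoma cells in that bin had 1426 CPM in the scratch-positive library and 3209 CPM in the scratch-negative library. Osteoclasts there had 3000 and 5182 CPM in these 2 libraries, and fibroblasts 1235 and 3242 CPM. Neutrophils had 4537, 5271 and 9845 CPM in the scratch-positive, scratch-negative and control libraries, and the intervals of the first 2 overlapped. Erythroid cells had 8973 CPM in the scratch-negative and 12280 CPM in the control library. B-lineage cells in that bin did not differ beyond their counting intervals, with 15139 CPM in the scratch-negative and 15019.6 CPM in the control library. In the lowest bin of monocytes and macrophages, the intervals of the scratch-positive and scratch-negative values overlapped. They came from 120 histone UMIs in 200 cells and from 139 UMIs in 243 cells. In natural killer cells the level did not rise steadily over the lower 3 bins. Cells with 0, 1 to 2 and 3 to 5 cycle UMIs had 722.2, 695.1 and 684.2 CPM in the scratch-positive library. They had 966.7, 851.9 and 740.7 CPM in the scratch-negative library and 1142.9, 1100.0 and 1367.6 CPM in the control library. These bins held 26, 57 and 26 of 181 histone UMIs in the scratch-positive library. They held 87, 92 and 40 of 225 in the scratch-negative and 80, 187 and 93 of 410 in the control library. The rest lay in the highest bin, which had fewer than 10 cells in each library and is not given. In scratch-negative neutrophils, cells with 0 cycle UMIs were 62.3% of cells and held 1940 of 3654 histone UMIs. Their level was 503.4 CPM, against 5271 CPM in the 35 cells of the highest bin.

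**Figure D2:**
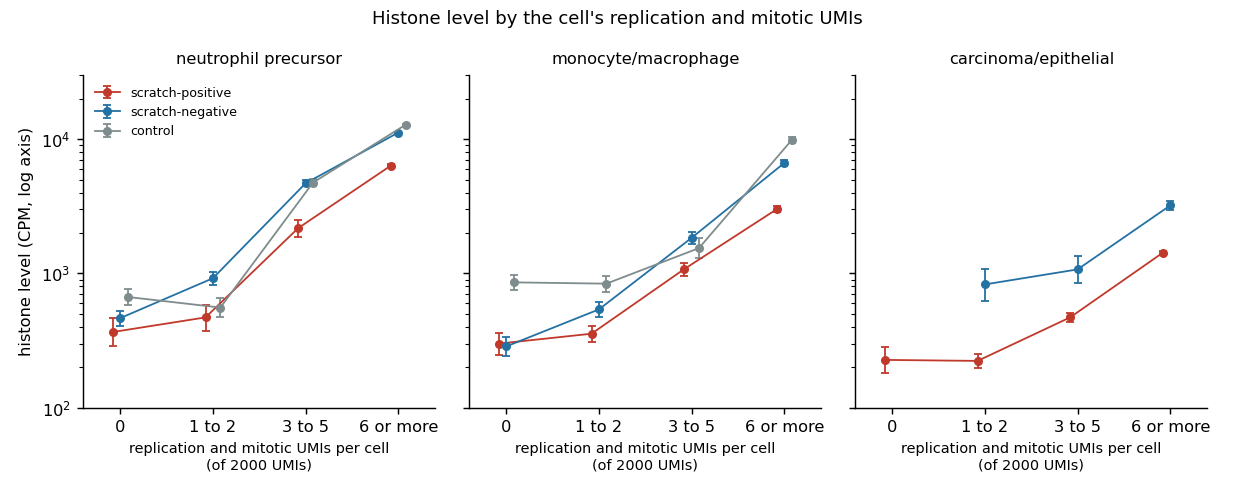
Summed histone level (CPM, log axis) in cells thinned to 2000 UMIs and sorted by their replication and mitotic UMIs, in neutrophil precursors, monocytes and macrophages, and carcinoma cells, with 1 line per library, exact Poisson 95% intervals as bars and bins of at least 10 cells. In precursors with 6 or more such UMIs the scratch-positive library has 6352 CPM, against 11198 CPM in the scratch-negative and 12824 CPM in the control library.

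Members differed in how closely they followed the cycle genes. Of the 13 members with at least 4 UMIs in the lowest bin of every library, Hist1h1b, Hist1h2ae and Hist1h2ap had the largest ratios of the highest to the lowest bin. The ratio of Hist1h1b was 51.8, 138 and 64.4 in the scratch-positive, scratch-negative and control libraries. That of Hist1h2ae was 48.0, 77.2 and 86.8, and that of Hist1h2ap was 58.3, 70.0 and 54.4. Members with fewer UMIs in the lowest bin were left out, among them Hist1h3c with 0, 6 and 4 UMIs there and Hist1h2ab with 0, 1 and 3, against 2293, 10450.0 and 11702 UMIs of Hist1h3c in the highest bin. By the mean log2 ratio over the 3 libraries, Hist3h2a, Hist1h2bc and Hist1h1c had the smallest ratios. The ratio of Hist3h2a was 1.54, 2.27 and 2.28 and that of Hist1h2bc was 1.38, 2.73 and 3.61. For Hist1h1c it was 6.14, 4.34 and 4.78. The mean log2 ratio of Hist1h1c (2.331) was close to those of Hist1h2br (2.336) and Hist1h4i (2.345). In the scratch-positive library Hist1h2br (3.91), Hist1h4i (5.71) and Hist1h1e (5.72) had smaller ratios than Hist1h1c. In the control library Hist1h4i (3.61) did. Levels of Hist3h2a and Hist1h2bc thus differed little between cells with many and with few cycle transcripts, compared with those of Hist1h1b. Hist1h1c differed more, by at least 4.34 times in each library, though less than Hist1h1b.

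A similar contrast was seen between neutrophils and their precursors. The level in neutrophils over that in precursors had a median of 0.0999 over the 48 members with at least 50 precursor UMIs in every library. Hist1h2bc kept most, with 0.634 in the scratch-positive library, 0.692 in the scratch-negative library and 1.01 in the control library. Hist3h2a followed with 0.513, 0.521 and 0.827, and Hist1h4i with 0.370, 0.336 and 0.494. Hist1h1c had 0.289, 0.291 and 0.441. The lowest medians over the 3 libraries were those of Hist1h1a (0.0418) and Hist1h3b (0.0486). Hist1h1b had 0.0857, 0.0368 and 0.108. Members with the polyadenylation signal AATAAA after their stem-loop had a median ratio of 0.202 (9 ranked members), and members with a run of at least 8 A had 0.150 (6 members). With AATAAA anywhere in the transcript the median was 0.112 (15 members). It was 0.110 in members with a stem-loop in the annotated transcript (31 members) and 0.0920 in those with none there (17 members). These medians are descriptions of few genes.

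Neutrophil precursors, with 747, 1653 and 1221 cells in the scratch-positive, scratch-negative and control libraries, held the most histone UMIs and allow all 3 comparisons. They comprised 3 clusters, led by Mpo and Elane in the earliest and by Camp, Ngp and Ltf in the latest. In the scratch-positive library their summed histone level was 2.10-fold lower than in control (4755 against 9976 CPM, ratio 0.477, 95% counting interval 0.473 to 0.481). Of 61 members with at least 10 UMIs in the pair, 41 were lower by at least 1.5-fold with the whole interval below 1, and 0 were higher. Of all genes tested, 8.69% were lower and 11.1% higher by this rule. The median log2 ratio was −0.90 over the members and 0.00 over all genes. The 2 members not tested were Hist2h2aa2 and Hist1h4m. Median depth of the precursors was 17203 UMIs per cell in the scratch-positive library, 23946 in the scratch-negative library and 23928 in the control library, and the ratio was 0.508 with all cells thinned to 2000 UMIs.

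**Figure D3:**
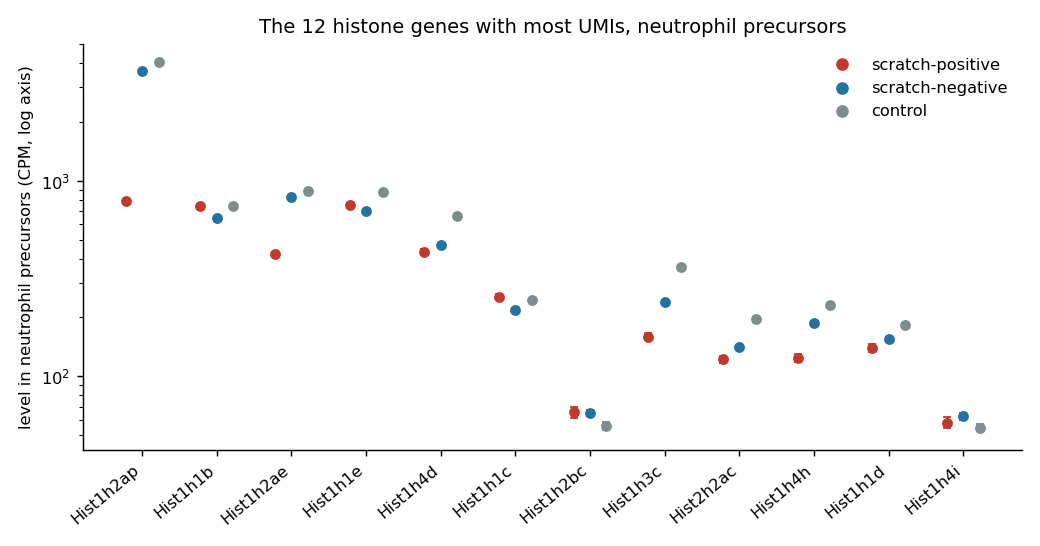
Level in neutrophil precursors (CPM, log axis) of the 12 histone genes with most UMIs, with 1 point per library and exact Poisson 95% intervals as bars. Hist1h2ap has 789.8 CPM in the scratch-positive library, against 3657 CPM in the scratch-negative and 4023 CPM in the control library, whereas the Hist1h1b points lie between 642.8 and 743.1 CPM.

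The histone types moved unequally in scratch-positive precursors. H2A genes were lowest, with 1532 CPM in the scratch-positive library against 5585 CPM in control (ratio 0.274, 0.271 to 0.278), and 13 of 16 were called lower. H3 genes had 306.8 against 699.3 CPM (0.439) and 8 of 12 were lower. H2B genes had 312.2 against 523.3 CPM (0.597) and 10 of 16 were lower. H4 genes had 692.6 against 1106 CPM (0.626) and 10 of 12 were lower. H1 genes had 1911 against 2062 CPM (0.927, 0.914 to 0.940) and 0 of 5 were called. The linker histones thus stayed near their control level, while the sum of each core type was below it.

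Hist1h2ap had 789.8 CPM in scratch-positive precursors, 3657 CPM in scratch-negative precursors and 4023 CPM in control precursors. The scratch-positive value stood apart from the other two. It was 5.09-fold lower than in control, the smallest ratio of any member called (0.196, 0.1926 to 0.2001). Next came Hist1h2ai, an H2A gene with 6.53 against 27.6 CPM (0.237), and Hist1h3b, an H3 gene with 15.1 against 60.3 CPM (0.251). Without Hist1h2ap the summed ratio was 0.666, so this gene with its near-copies made up much of the summed difference.

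Hist1h2ae, the other abundant H2A gene, had 420.7, 827.4 and 890.9 CPM in scratch-positive, scratch-negative and control precursors, a ratio of 0.472 to control. Hist1h3c, the H3 gene with most UMIs, had 159.0, 241.1 and 360.7 CPM, a ratio of 0.441. Hist1h4h had 123.7, 187.2 and 230.9 CPM (0.536) and Hist2h2ac 121.9, 141.4 and 195.3 CPM (0.624). In each of these 4 genes the scratch-positive library was lowest and the control library highest. Of the members called lower, those nearest to the threshold were Hist1h4d with 434.2, 467.5 and 663.1 CPM (0.655), Hist1h2bf (0.644) and Hist1h2bh (0.636).

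Members near control included linker histones and genes known for polyadenylated mRNA. Hist1h1b had 743.1, 642.8 and 738.9 CPM in scratch-positive, scratch-negative and control precursors, a ratio of 1.01 to control. Hist1h1c had 255.5, 219.3 and 244.9 CPM (1.04) and Hist1h1e 753.1, 699.2 and 874.9 CPM (0.861). Hist1h1d had 139.5, 155.0 and 182.2 CPM (0.766). None of these 4 reached the 1.5-fold threshold. Hist1h2bc had 65.5, 64.7 and 55.5 CPM (1.18) and Hist1h4i 58.0, 62.3 and 54.7 CPM (1.06, interval 0.976 to 1.15). Hist2h2be had 19, 77 and 45 UMIs, too few to place its ratio (0.976, interval 0.539 to 1.70).

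**Figure D4:**
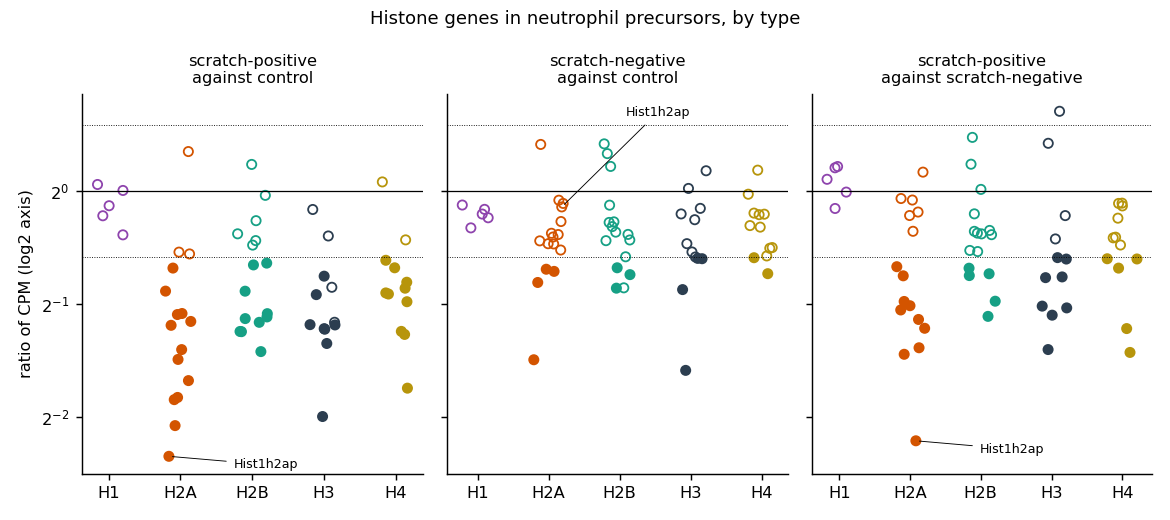
Ratio of CPM in neutrophil precursors for each tested histone gene, by type, on a log2 axis, in 3 panels for the 3 comparisons. Filled points were at least 1.5-fold apart with the whole 95% counting interval on that side of 1, and dotted lines mark 1.5-fold. No H1 gene is filled in any panel, and Hist1h2ap is the lowest point of the panels for scratch-positive against control (0.196) and against scratch-negative (0.216).

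Scratch-positive precursors were also below scratch-negative ones. The summed level was 1.78-fold lower in the scratch-positive library (ratio 0.563, 0.559 to 0.568), with 28 of 61 members lower and 0 higher, against 3.5% of all genes lower and 6.06% higher. The median log2 ratio was −0.47 over the members and 0.05 over all genes. H2A genes had 1532 against 4969 CPM (0.308), with 10 of 16 lower. H3 genes had a ratio of 0.629, with 8 of 12 lower, H2B genes 0.754, with 5 of 16, and H4 genes 0.831, with 5 of 12. H1 genes had 1911 against 1736 CPM (1.10, 1.09 to 1.12) and 0 of 5 were called. Hist1h2ap was again lowest, 4.63-fold lower (0.216), followed by Hist1h2ad (0.367) and Hist1h4n (0.372). The called members nearest to the threshold were Hist1h3e (0.666), Hist1h4h (0.661) and Hist1h4j (0.660). Without Hist1h2ap the summed ratio was 0.829. This comparison and the one with control share the scratch-positive library, so they are not independent.

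Scratch-negative precursors were closer to control. Their summed level was 8440.4 CPM against 9976 CPM in control (ratio 0.846, 0.842 to 0.850). Of 61 members, 13 were lower and 0 higher, against 3.86% of all genes lower and 4.96% higher, and the median log2 ratio was −0.37 over the members and −0.03 over all genes. The ratio was 0.698 for H3 genes (4 of 12 lower), 0.753 for H4 (2 of 12), 0.792 for H2B (3 of 16), 0.842 for H1 (0 of 5) and 0.890 for H2A (4 of 16). Here H2A had the highest ratio, not the lowest. The smallest ratios were those of Hist1h3h with 14 against 31 UMIs (0.333), Hist1h2an with 12.3 against 34.5 CPM (0.355) and Hist2h3c2 with 23 against 31 UMIs (0.547). The called members nearest to the threshold were Hist1h4c (0.665), Hist1h3b (0.663) and Hist1h3e (0.661). Hist1h2ap itself had a ratio of 0.909. The number of members called lower was 8 with cells kept from 200 genes on, against 4.11% of all genes, and 2 under a 2-fold threshold, against 1.29%.

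Genes that act with the histones were not lower alongside them in these cells. Replication genes, as a sum, had 1533 CPM in scratch-positive, 1282 in scratch-negative and 1271 in control precursors. Scratch-positive precursors were 1.20 times control and 2 of 27 genes were called higher, Dut, which prevents uracil from entering DNA (1.54), and Ccne1, cyclin E1 (1.53). Mitotic genes had 3883, 3503 and 3484 CPM, with 1 of 22 higher in scratch-positive than in control precursors, Ccnb1, cyclin B1 (1.55). Histone UMIs per replication-gene UMI were 3.10 in scratch-positive, 6.59 in scratch-negative and 7.85 in control precursors.

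Genes that process histone mRNA were also near or above control. Slbp had 145.2, 116.3 and 130.6 CPM in scratch-positive, scratch-negative and control precursors, a ratio of 1.11 for scratch-positive against control. Eri1, an exonuclease that trims histone mRNA ends, had 53.0, 40.2 and 39.6 CPM (1.34). Of the 12 processing genes, 1 was called higher, Lsm10, part of the snRNP that guides cleavage at the histone 3′ end, with 20.1 against 12.7 CPM (1.57), and 0 lower. Of 13 histone chaperones, 0 were called in scratch-positive against control precursors, and Rbbp4 (1.27) and Nap1l1 (1.16) had most UMIs. Of 11 genes listed as replication-independent histone variants, 0 were called. H2afz had 4444, 3459 and 3435 CPM and H3f3a 2537, 2094 and 2027 CPM, and both were highest in the scratch-positive library.

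In scratch-negative against control precursors 0 genes of these lists were called except H1fx, an H1 variant (0.452, from 27 against 44 UMIs). In scratch-positive against scratch-negative precursors H1fx was higher (2.56, from 22 against 27 UMIs) and no other gene of these lists was called.

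The difference was present in each precursor cluster. For scratch-positive against control, the summed ratio was 0.387 in the Mpo and Elane cluster, 0.493 in the Fcnb and Cebpe cluster and 0.499 in the Camp and Ltf cluster. For scratch-positive against scratch-negative it was 0.488, 0.590 and 0.566. Summed markers of mature neutrophils were 288284 CPM in scratch-positive, 334710 in scratch-negative and 340048 in control precursors, with all 10 markers detected in each. The part of these markers in the result was not tested.

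Carcinoma cells numbered 3640 in the scratch-positive library and 202 in the scratch-negative library. Their summed histone level was 1098 CPM against 2549 CPM (ratio 0.431, 0.426 to 0.436). Of 62 members, 31 were lower and 0 higher, against 12.4% of all genes lower and 3.47% higher. H2A genes had 375.6 against 1660 CPM (0.226), and H3 genes had a ratio of 0.451. H1 genes had 408.5 against 436.3 CPM (0.936) and 1 of 5 was called lower. Hist1h2ap had 168.2 against 1130 CPM (0.149), whereas Hist1h1b had 216.3 against 235.4 CPM (0.919) and Hist1h2bc 69.9 against 67.0 CPM (1.04). Replication genes had 1901 against 1874 CPM. Without Hist1h2ap the summed ratio was 0.655.

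The carcinoma classes of the 2 libraries were not alike in makeup. Most scratch-positive cells (1625 and 1767) were in clusters whose leading genes included Krt18 and Krt17, and 156 of the 202 scratch-negative cells were in a cluster led by interferon-induced genes such as Gbp2 and Igtp. In that last cluster alone the levels were 1167 CPM in the scratch-positive library and 2705 CPM in the scratch-negative library. All 10 mature neutrophil markers were detected in carcinoma cells, at a sum of 789.1 CPM in the scratch-positive library and 20829.5 CPM in the scratch-negative library. Whether these transcripts came from the carcinoma cells themselves was not tested, nor was their part in the result.

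Monocytes and macrophages gave the lowest ratio to control. Scratch-positive cells had 1633 CPM against 5223 CPM (0.313, 0.308 to 0.317), with 49 of 59 members lower against 11.8% of all genes, and 0 higher against 27.9%. Hist1h2ap had 266.2 CPM in the scratch-positive library, 1348 in the scratch-negative library and 2152 in the control library. Scratch-negative cells were lower than control as well (0.561), with 49 of 60 members lower against 7.95% of all genes, and 0 higher against 10.2%. Here linker histones were among the lower members, with a ratio of 0.537 for H1 genes. For scratch-positive against scratch-negative the summed ratio was 0.557, with 24 of 60 members lower against 10.2% of all genes and 0 higher against 28.7%. Without Hist1h2ap it was 0.863.

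This class changed its makeup between libraries. A cluster led by class II genes and C1qa held 857, 595 and 133 cells in the scratch-positive, scratch-negative and control libraries, and a cluster led by F13a1 and Ccr2 held 56, 128 and 261. Within the first, histones had 1617, 3021 and 6759 CPM. Within the second they had 2344, 1680 and 1945 CPM, so there the scratch-positive library was highest. The class ratio of scratch-positive to control was 0.620 at a clustering resolution of 2.0 and 0.650 with at least 1000 genes per cell. Mature neutrophil markers summed to 102369 CPM in the scratch-positive, 233598 in the scratch-negative and 206137 in the control library, with all 10 detected in each, and their part in these values was not tested.

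In mature neutrophils both tumour libraries were below control. Scratch-positive cells had a ratio of 0.486, with 31 of 57 members lower against 14.1% of all genes and 0 higher against 12.9%, and scratch-negative cells a ratio of 0.466, with 43 of 58 lower against 12.3%. No member was higher than control in scratch-negative cells, against 4.72% of all genes. Against each other the tumour libraries gave 1.04 (1.01 to 1.08), but 0.816 after thinning. In that comparison 8 of 50 members were higher, against 13.8% of all genes, and 3 were lower, against 3.36%. Hist1h2ap had 74.3, 168.2 and 449.9 CPM in the scratch-positive, scratch-negative and control libraries, and Hist1h1e 189.2, 143.3 and 213.8 CPM. The ratios to control depended on where precursors were divided from neutrophils. That of scratch-positive cells was 0.875 at a resolution of 2.0 and 0.902 with cells kept from 200 genes on, and that of scratch-negative cells was 0.838 when histone genes were left in the clustering.

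Osteoclasts, of which the scratch-positive library had 874 and the scratch-negative library 82, had a summed ratio of 0.550 between these libraries (0.538 to 0.563). Of 56 members, 25 were lower against 9.85% of all genes, and 4 were higher against 8.03%. H2A genes had 369.5 against 1341 CPM (0.275), whereas H2B genes had 304.3 against 225.0 CPM (1.35). Fibroblasts of the periosteum had a ratio of 0.710, with 13 of 53 members lower against 16.2% of all genes and 3 higher against 11.3%, and 0.978 without Hist1h2ap. Mature neutrophil markers, all 10 detected, summed to 7868 CPM in scratch-positive and 41806 CPM in scratch-negative osteoclasts. In fibroblasts they summed to 3222 and 28020 CPM. Mmp9 was on both the neutrophil and the osteoclast marker lists, so the osteoclast sums are not of neutrophil genes alone. The part of these markers was not tested.

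Erythroid and B-lineage cells could be compared between the scratch-negative and control libraries. Erythroid cells had a ratio of 0.717 (0.711 to 0.724), with 33 of 60 members lower against 2.66% of all genes and 0 higher against 4.86%. As in precursors, H3 genes had the smallest ratio (0.533) and H2A genes the largest (0.755). B-lineage cells had 0.958 (0.943 to 0.972), with 15 of 56 members lower against 5.24% of all genes and 0 higher against 1.99%. After thinning their summed ratio was 1.27, on the other side of 1. Mature neutrophil markers summed to 16860 CPM in scratch-negative and 9461 CPM in control erythroid cells, and to 19724 and 27125 CPM in B-lineage cells, and their part was not tested. T cells had 1.07 (0.993 to 1.16), with 3 of 37 members higher against 5.67% and 0 lower against 3.17%. In osteoblasts the ratio was 1.56, with 12 of 33 members higher against 4.62% and 1 lower against 12.1%, but it was 0.898 after thinning. Osteoblasts of the scratch-negative and control libraries held 48972 and 17689 CPM of mature neutrophil markers and 16281 and 4439.9 CPM of precursor markers, and their part was not tested. In natural killer cells the ratio of scratch-positive to control was 1.11, with 3 of 29 members higher against 7.59% of all genes and 0 lower against 4.87%. That of scratch-negative to control was 0.518, with 10 of 29 members lower against 3.63% and 0 higher against 3.69%, and 1.24 when no doublets were removed. The direction of the ratio thus changed with the processing in B-lineage cells, T cells, osteoblasts and natural killer cells, and in neutrophils between the tumour libraries.

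Beyond the level, the makeup of the histone UMIs differed between the libraries. In precursors Hist1h2ap made up 16.6% of histone UMIs in the scratch-positive library, against 43.3% in the scratch-negative and 40.3% in the control library. In monocytes and macrophages the shares were 16.3%, 46.0% and 41.2%. Carcinoma cells had 15.3% in the scratch-positive and 44.3% in the scratch-negative library. Natural killer cells did not follow, with 8.5%, 8.3% and 12.3%. Over the 7 classes with at least 50 cells in both tumour libraries, the share of Hist1h2ap in the scratch-positive library was below that in the scratch-negative library in 6, with a median ratio of shares of 0.355.

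The shares of several other members were higher, and those of some were lower. Hist1h2ae made up 8.85%, 9.80% and 8.93% in scratch-positive, scratch-negative and control precursors, and was lower in the scratch-positive than in the scratch-negative library in 4 of 7 classes. The share of Hist1h1b in precursors was 15.6% in the scratch-positive, 7.62% in the scratch-negative and 7.41% in the control library. It was higher in the scratch-positive than in the scratch-negative library in 7 of 7 classes, with a median ratio of 2.26. Hist2h2ac, an H2A gene, was higher in 7 of 7 as well (median 1.67) and Hist1h1c in 6 of 7 (median 1.97). Hist1h2ao, which holds the same run of 12 A as Hist1h2ap, was higher in 4 of the 4 classes with enough UMIs (median 1.77), although its split from Hist1h2ap is uncertain. In precursors H1 genes made up 40.2% of histone UMIs in the scratch-positive, 20.6% in the scratch-negative and 20.7% in the control library. With 1 library a group, treatment and library preparation cannot be told apart.

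**Figure D5:**
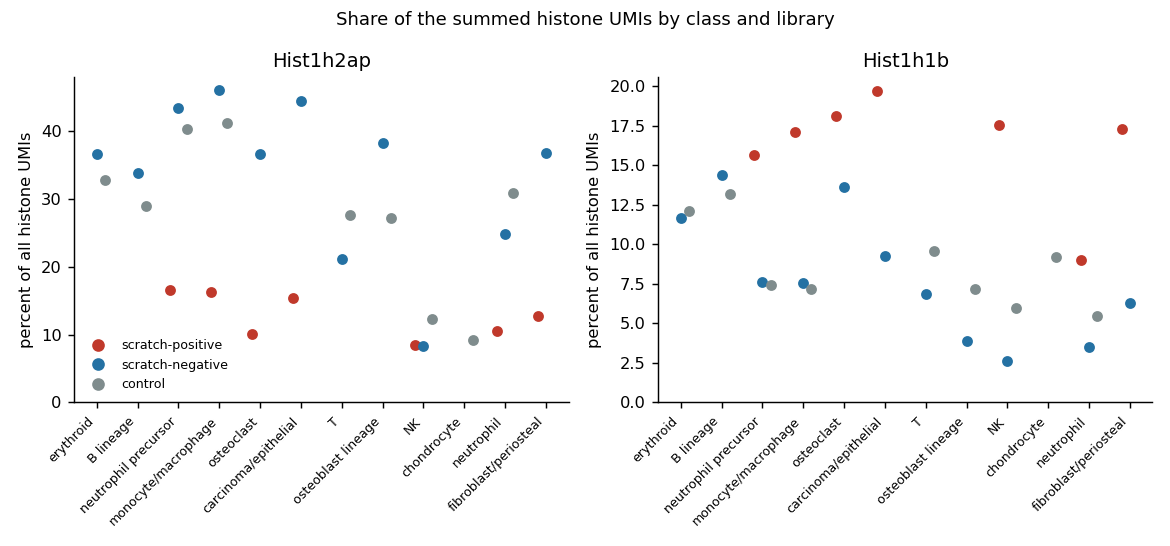
Share of Hist1h2ap (left) and of Hist1h1b (right) among all histone UMIs, in percent, by class and library, for classes with at least 50 cells in the library. In neutrophil precursors Hist1h2ap holds 16.6% in the scratch-positive library against 43.3% in the scratch-negative and 40.3% in the control library, and Hist1h1b 15.6% against 7.62% and 7.41%.

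Across the 27 profiles of class and library with at least 50 cells, most members followed the sum of the others. Pearson's r of log2(CPM + 1) had its highest values in Hist1h2ab (0.982) and Hist1h2ae (0.974). It was lowest in Hist2h3c2 (−0.04), Hist2h2aa2 (−0.00), Hist1h2bc (0.00), Hist2h3c1 (0.10) and Hist3h2a (0.19). Of these, Hist2h3c2, Hist2h2aa2 and Hist2h3c1 had only 761, 44 and 576 UMIs over all libraries. Hist2h2aa2 and Hist2h3c1 also shared 100% of their 90-base windows with other genes, so their low values are uncertain. Among the 13 members ranked by cycle bin, Hist1h2bc and Hist3h2a differed least between the highest and lowest bins. Among 11102 genes, those most like the summed histone level were Cdca7 (0.937), Incenp (0.928), Nusap1 (0.894), Esco2 (0.887) and Smc4 (0.884). The sum of mitotic genes had r = 0.786 and that of replication genes 0.733. Profiles of 1 library share its depth and free RNA, so these values describe the profiles and were given no p.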

How the data were processed

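The deposited values were raw UMI counts per gene and cell barcode, made with Cell Ranger 6.1.2 from 10x 3′ v3.1 libraries, per the file headers and the labels' protocols. The mouse build mm10 is named in the submitters' processing notes, and the annotation used for counting is not given in the sources used here. All later steps are those of the re-analysis. The members and gene lists were chosen with earlier results of these data known, so none of the patterns is independent support for another.

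Barcodes with at least 500 genes and at most 10% mitochondrial UMIs were kept. Scrublet's own threshold marked 616, 1 and 6 barcodes in the scratch-positive, scratch-negative and control libraries, which is too few in the last 2 libraries for a call that works. The top-scoring barcodes were therefore removed at 0.8% per 1000 barcodes (723, 580 and 449). After leaving out all histone genes of the rule, 2000 variable genes and 30 principal components were clustered by the Leiden method with the resolution set to 1.0 (scanpy 1.11.5 with anndata 0.12.19 and igraph 0.11.9, and scipy 1.17.1 for intervals, under Python 3.11.15). Clusters were named from fixed marker lists, with at least 3 detected markers each.

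UMIs were summed per library and class. Levels carry exact Poisson and ratios exact conditional binomial 95% intervals, which cover counting error only. A gene was called where its ratio was at least 1.5-fold with the whole interval on one side of 1, given 10 UMIs in the 2 libraries and 50 cells in each. The calling step was tested on simulated counts. Medians of log2 ratios used 0.5 UMI added on both sides. The search for the genes most like the summed histone level used genes with at least 1000 UMIs, whereas all 63 members were correlated.

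Genes named were the 12 members with most UMIs; in precursors, the 3 largest and 3 smallest called ratios of each comparison; the 3 members with the largest and the 3 with the smallest ratio between cycle bins; the leading member of each class; the 2 genes with most UMIs and the called genes of each list; the 5 most alike genes; and the members known for polyadenylated mRNA. Others were named after their values were seen. Stem-loops and A runs were read from GENCODE M21 transcripts, and promoters are credited to RefSeq on GRCm38.p6.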

Additional observations from a re-analysis of the deposited data

Results flagged for a closer look

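Several classes moved in opposite directions under the same comparison, and the difference between classes was not tested. For scratch-negative against control, the summed histone level had a ratio of 1.56 in osteoblasts, against 0.518 in natural killer cells, 0.561 in monocytes and macrophages and 0.466 in neutrophils. For scratch-positive against scratch-negative, it was 2.13 in natural killer cells, with 8 of 18 members higher against 4.96% of all genes. In carcinoma cells it was 0.431, in monocytes and macrophages 0.557, in neutrophil precursors 0.563 and in osteoclasts 0.550. The natural killer class had 92 cells in the scratch-positive, 133 in the scratch-negative and 162 in the control library. These osteoblast and natural killer ratios changed direction under other processing, as given below.

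Clusters that could not be named also held histone UMIs. Their control cells were fewer than the 50 asked for elsewhere, so the levels are set side by side without a comparison. Cluster 6, with neutrophil markers but led by Ccl4, Ccl3 and Cxcl2, had 1953 CPM in 463 scratch-positive cells and 2028 CPM in 433 scratch-negative cells, against 541.5 CPM in 28 control cells. Cluster 19, led by Col4a1 and Acta2, had 1165 CPM in 208 scratch-positive cells and 2282 CPM in 109 scratch-negative cells, against 865.7 CPM in 19 control cells. Cluster 12, led by Mgp and Igfbp5, had 3371 CPM in 20 scratch-negative cells.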

How the results depend on the processing

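In neutrophil precursors all 3 summed ratios stayed below 1 under every alternative run. Values outside the main counting interval were as follows. For scratch-positive against control (main ratio 0.477) the ratio was 0.518 as the mean of each cell's own CPM, 0.508 with cells thinned to 2000 UMIs, 0.666 without the leading member and 0.395 per replication-gene UMI. It was 0.483 with histone genes left in the clustering, 0.495 at resolution 2.0, 0.495 from 200 genes per cell, 0.495 from 1000 genes and 0.483 without doublet removal. For scratch-negative against control (0.846) it was 0.887, 0.871, 0.803 and 0.839 under the first 4 of these settings, 0.872 at resolution 2.0, 0.887 from 200 genes, 0.891 from 1000 genes and 0.851 without doublet removal. For scratch-positive against scratch-negative (0.563) it was 0.584, 0.583, 0.829 and 0.471 under the first 4, 0.574 with histone genes left in, 0.559 from 200 genes and 0.555 from 1000 genes. Alternatives chosen after seeing the data were cells with 6 or more cycle UMIs (0.495 for scratch-positive and 0.873 for scratch-negative against control) and each cluster alone. Clusters 4, 15 and 20 gave 0.499, 0.493 and 0.387 for scratch-positive against control and 0.881, 0.836 and 0.793 for scratch-negative against control, and clusters 15 and 20 gave 0.590 and 0.488 for scratch-positive against scratch-negative.

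Under a 2-fold rule 27 members were lower for scratch-positive against control (3.21% of all genes), 2 for scratch-negative against control (1.29%) and 14 for scratch-positive against scratch-negative (1.69%). From 200 genes per cell 8 were lower for scratch-negative against control (4.11%). Summed levels in scratch-positive precursors were 4856 CPM at resolution 2.0, 4689 from 200 genes, 5242 from 1000 genes and 5049 without doublet removal. In scratch-negative precursors they were 8551, 8394, 9437 and 8902, and 8292 with histone genes left in. In control precursors they were 9805, 9463, 10592 and 10457, and 9846 with histone genes left in. From 1000 genes per cell the ratio of the highest to the lowest cycle bin was 19.6 in scratch-negative and 16.2 in control precursors. It was not run without doublet removal or from 200 genes. The r of the mitotic sum was 0.837 with histone genes left in, and that of the replication sum 0.808, 0.797 from 1000 genes and 0.681 without doublet removal. The number of members was 64 with a minimum of 10 UMIs and 61 with 100.

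Outside precursors, natural killer cells reversed without doublet removal, to 1.24 for scratch-negative against control and 0.518 for scratch-positive against scratch-negative. Osteoblasts reversed for scratch-negative against control, to 0.999 as the mean of cells, 0.898 after thinning and 0.927 per replication-gene UMI. B-lineage cells for scratch-negative against control gave 1.17 as the mean of cells, 1.27 after thinning and 1.01 in cells with 6 or more cycle UMIs (main 0.958), and T cells gave 0.991 without doublet removal (main 1.07). Neutrophils for scratch-positive against scratch-negative (main 1.04) gave 0.867 as the mean of cells, 0.816 after thinning, 0.657 per replication-gene UMI, 0.757 with histone genes left in, 0.957 from 1000 genes and 0.697 without doublet removal. Natural killer cells for scratch-positive against control (main 1.11) gave 0.763, 0.821 and 0.463 under the first 3 of these settings and 0.640 without doublet removal. The cause was not tested. Per replication-gene UMI, 7 of 16 ratios of the other classes moved by over 1.5 times. Of the other single values recomputed, 281 stayed within their interval or count range and 215 left it without reversing. No paired analysis was possible because each group had 1 library. Depth limits members with few UMIs, and a class with few cells in a library gives a level of those cells alone.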
